A study of Mus musculus with 27 samples.

Results

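Keratin-poor tumours are 3 of the 27 mouse mammary tumours of this series, set apart by low RNA of epithelial cell markers. The rule averaged, in each tumour, the log2 intensity of 16 epithelial markers, of which 14 were measured, and placed a tumour on the keratin-poor side when that mean was under 7. J4, from a juvenile host, had a mean of 5.80, and A5 and A6, from adult hosts, had means of 5.37 and 5.86. The nearest tumour outside the rule was A1 at 8.24, and the 24 other tumours ran from 8.24 to 11.02 with a median of 10.29. The sides were therefore chosen from the same arrays that are described below, and no test was made of a difference in expression between them.

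All 27 tumours grew from Trp53 null mammary fragments, tissue without the p53 tumour suppressor, placed in BALB/c mice of the same strain. The inguinal fat pads that received the fragments had been cleared of their own ducts when the host was 3 weeks old. Hosts were grafted at 5 weeks (15 juvenile hosts, J1 to J15) or at 10 weeks (12 adult hosts, A1 to A12), and were palpated for 13 months from 6 months after grafting. The loss of Trp53 is shared by both sides, host cells of blood vessels, fat, muscle and the immune system have normal Trp53 and can be part of any tumour, and the labels name no tumour histology and do not say whether tumours shared a host. Total RNA was hybridised to Illumina mouse BeadChips, whose probes carry no count of molecules, so the number of arrays limits the precision.

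Epithelial cells are held together by adherens junctions (E-cadherin), tight junctions (claudins) and desmosomes, and are stiffened inside by keratin filaments. Transcription factors such as ELF3 and GRHL2 and the splicing regulators ESRP1 and ESRP2 keep up this state, while ZEB1, SNAI2 and TWIST1 repress it, ZEB and SNAI proteins by binding E-box motifs in the promoters of epithelial genes. Mammary carcinomas range from keratin-rich luminal types to spindle-shaped types with few epithelial features, and any carcinoma also holds endothelial cells, which line blood and lymph vessels, and mural cells around them.

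The promoters of markers whose RNA set the 3 tumours apart are shown because they hold the E-box CAGGTG, the sequence that ZEB and SNAI proteins are known to bind. Each run has 300 bases, from 250 before to 50 after the RefSeq start site on GRCm38.p6, 5′ to 3′ along the gene, with the motif on either strand (CAGGTG or CACCTG) in capitals.
Krt18 (chr15:102027966-102028265, plus strand): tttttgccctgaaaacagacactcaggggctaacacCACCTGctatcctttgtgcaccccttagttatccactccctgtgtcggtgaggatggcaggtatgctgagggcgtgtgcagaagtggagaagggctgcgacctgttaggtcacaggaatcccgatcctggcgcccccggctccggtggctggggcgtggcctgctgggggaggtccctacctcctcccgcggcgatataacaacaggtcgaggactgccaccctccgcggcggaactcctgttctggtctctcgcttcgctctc
Krt8 (chr15:102004293-102004592, minus strand): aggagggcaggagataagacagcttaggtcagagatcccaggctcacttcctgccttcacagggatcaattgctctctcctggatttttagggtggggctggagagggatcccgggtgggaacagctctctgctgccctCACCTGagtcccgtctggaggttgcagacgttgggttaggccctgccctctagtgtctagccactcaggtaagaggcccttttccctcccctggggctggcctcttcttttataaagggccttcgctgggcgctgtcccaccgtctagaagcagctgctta
Cldn4 (chr5:134946885-134947184, minus strand): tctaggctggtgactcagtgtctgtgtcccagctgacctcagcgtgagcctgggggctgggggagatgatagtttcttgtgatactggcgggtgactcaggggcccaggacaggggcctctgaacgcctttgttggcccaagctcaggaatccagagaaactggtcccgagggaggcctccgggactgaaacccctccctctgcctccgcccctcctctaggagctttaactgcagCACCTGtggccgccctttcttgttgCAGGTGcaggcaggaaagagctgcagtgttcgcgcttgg
Elf3 (chr1:135258423-135258722, minus strand): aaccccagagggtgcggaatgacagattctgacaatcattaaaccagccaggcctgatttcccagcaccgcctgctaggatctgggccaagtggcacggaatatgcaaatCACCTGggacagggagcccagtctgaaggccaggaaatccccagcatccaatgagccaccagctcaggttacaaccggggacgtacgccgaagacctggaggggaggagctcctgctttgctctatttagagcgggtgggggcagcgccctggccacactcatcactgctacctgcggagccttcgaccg

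Of the 16 markers, 10 had a promoter in the RefSeq table, and 9 of these (90%) held CAGGTG in at least 1 window, against 20.2% of all 32851 promoter windows and 22.6% of 27025 genes over any window. Spint2, a protease inhibitor gene, held it 3 times and Spint1 held it 0 times. The palindromic motif AACCNGGTT, bound by grainyhead proteins such as GRHL2, was found in 0 of 10 markers and in 0.271% of windows. A match of letters is a description and not a measured binding site.

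Of 10758 genes measured, 173 (1.61%) were lower and 96 (0.892%) were higher in the keratin-poor tumours. A gene was counted when J4, A5 and A6 all lay outside the range of the 24 other tumours and the side means differed by at least 1 on the log2 scale. Measured genes were detected on 12 or more arrays. A gene detected in the 3 tumours alone could thus not be counted as higher. One detected in the 24 others alone could be counted as lower. Because the rule used these arrays, the counts describe the 3 tumours and are not a test. By comparison, J4 alone lay below all 24 others in 9.86% of genes and above them in 8.96%. A5 did so in 10.4% and 8.89%, and A6 in 7.38% and 7.46%. The median difference over all genes was -0.06.

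**Figure D1:**
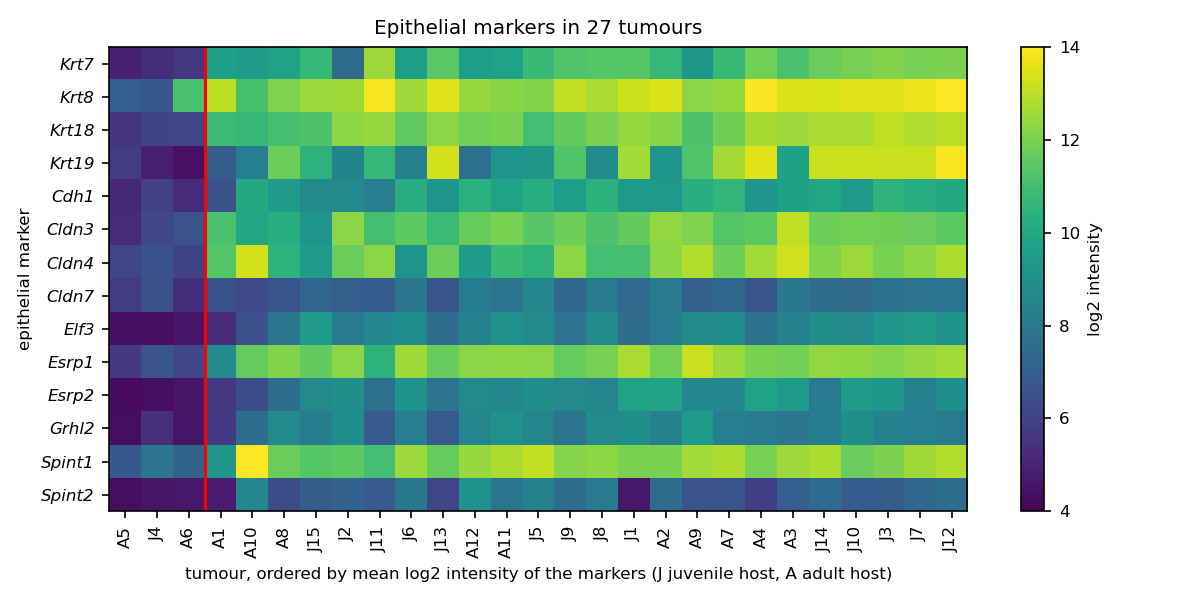
Log2 intensity (colour) of the 14 measured epithelial markers (rows) in 27 tumours (columns), ordered by the mean of the markers; J is a juvenile and A an adult host, and the red line separates the 3 keratin-poor tumours. A5, J4 and A6 are dark in nearly every row, with Krt8 in A6 (11.13) the bright exception.

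Of the 14 markers that set the sides, 12 lay below all others, and the 2 exceptions were Krt8 and Cldn7. The simple epithelial keratin Krt18 was at 6.03 in J4, 5.55 in A5 and 6.10 in A6, against 10.65, 12.12 and 13.04 (lowest, median and highest) in the others. All 3 tumours lay more than 4 log2 units under the lowest other tumour, and the side means differed by -6.11, a 69-fold lower signal. Krt8, the partner with which keratin 18 forms filaments, was at 6.71 in J4, 6.98 in A5 and 11.13 in A6, against 11.08, 13.05 and 13.99. A6 thus kept a Krt8 signal inside the range of the others, so the name keratin-poor holds for its Krt7, Krt18 and Krt19 but not for Krt8. Krt7 and Krt19 were 45.1-fold and 56.8-fold lower in the side means, and the Krt19 probe was detected in 1 of the 3 tumours.

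Junction and splicing markers were low in the same way. The E-cadherin gene Cdh1 was at 5.95, 5.13 and 5.21 in J4, A5 and A6 against 6.50, 9.71 and 10.60 in the others, a difference of -4.17 (SD 0.45 over 3 and 0.90 over 24 tumours). The lowest other value was close to J4, so the gap was narrow while the means were far apart. The tight junction genes Cldn3 and Cldn4 were 44.2-fold and 43.2-fold lower, and the splicing regulator Esrp1 was 56.6-fold lower. Cldn7 overlapped, at 6.48, 5.75 and 5.29 against a lowest other value of 6.19.

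Where none of the 3 arrays detected a probe, the fold is a lower bound, computed against the higher of the probe's own signal and the lowest detected signal on each array. On this basis Elf3 was at least 11.8-fold lower, Esrp2 at least 13.9-fold lower and Spint2 at least 4.96-fold lower. Grhl2 (detected in 1 of 3) was 11-fold lower, and the protease inhibitor gene Spint1 (detected in 3 of 3) was 29.6-fold lower. The 2 unmeasured markers were Epcam, whose probe was detected on 1 of 27 arrays, and Ehf, detected on 0, so these probes say nothing about either side.

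Genes outside the marker list followed on the lower side. Among 14 other junction genes 7 were lower in all 3 tumours, against 1.61% of all genes. They were Dsg2, Pkp1, Pkp3 and Ppl of desmosomes, Cxadr and Marveld3 of tight junctions, and the polarity gene Llgl2. Over all 14 the mean level was 5.21 in J4, 5.39 in A5 and 5.33 in A6, against 7.01, 8.46 and 9.22 in the others. Dsg2, a desmosomal cadherin, was at 4.39, 4.84 and 5.18 in J4, A5 and A6 against 8.42, 10.16 and 12.83. Its groups were far apart, and the means differed by -5.34. Cxadr, a junction receptor, differed by -5.51 and was detected in 1 of 3 tumours.

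Epithelial regulators and polarity genes were lower for 9 of 18 measured (all genes: 1.61%): Trp63, Rab25, Ap1m2, St14, Prss8, Cdcp1, Macc1, Bspry and Prom2. Their mean over the 18 was 5.11, 5.01 and 5.81 against 6.42, 8.93 and 9.57, with no overlap. Rab25, a trafficking GTPase of epithelia, was at 6.23, 4.69 and 5.58 against 7.17, 11.56 and 12.41, and was 55.9-fold lower in the means. Prom2, an epithelial membrane gene, was at least 26.8-fold lower. Tfap2c, a factor of mammary luminal and other epithelia, was at 6.95, 5.78 and 6.82 against 6.92, 12.85 and 13.50. J4 there lay just above the lowest other tumour, so Tfap2c was not counted although the means differed by -5.79.

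Basal and luminal genes were both among the lower ones. Of 13 basal and myoepithelial genes 6 were lower in all 3 tumours (all genes: 1.61%): Krt14, Krt15, Krt17, Trp63, Lamb3 and Itgb4. The list mean was 6.49, 6.17 and 6.42 against 7.52, 9.46 and 11.66, again below all others. The basal keratin Krt14 was at 7.28, 5.81 and 4.93 in J4, A5 and A6 against 8.38, 12.30 and 14.85, a difference of -5.92. Trp63, the p63 transcription factor of basal cells, was detected in none of the 3 tumours and was at least 20.8-fold lower, though J4 (4.70) and the lowest other tumour (4.70) nearly met. Krt5 was detected in none of the 3 and in 16 of 24 others, and the ranges overlapped.

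Of 16 luminal and milk genes 2 were lower (all genes: 1.61%), the secreted proteins Wfdc2 (58.2-fold) and Lcn2 (20.1-fold). The list mean overlapped, at 7.78 in J4, 7.30 in A5 and 6.45 in A6 against 6.73, 9.51 and 10.45. Lcn2, a lipocalin, was at 9.81, 9.36 and 10.33 against 11.09, 14.65 and 15.01. Milk protein genes differed among the 3 tumours: the casein gene Csn2 was at 10.90 in J4 and 9.59 in A5 but at 4.74 in A6, against 4.61, 8.01 and 13.33 in the others. Wap, the whey acidic protein gene, was at 9.43 in J4, 5.63 in A5 and 4.45 in A6, against 4.28, 5.41 and 11.09. J4 and A5 thus held milk RNA at a level found in other tumours, while A6 lay near their lowest value.

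Of Erbb2, Foxa1, Gata3 and Esr1 none separated the sides. Erbb2, which encodes the HER2 receptor, was at 6.85, 6.63 and 5.85 against 6.51, 8.87 and 9.67. Foxa1, a luminal transcription factor, was at 4.42, 5.09 and 4.68 against 4.36, 8.41 and 11.77. Gata3, another luminal factor, was at 4.99 and 6.06 in J4 and A5 and at 8.97 in A6, against 6.11, 9.79 and 11.93. The ranges of all these genes overlapped, and the estrogen receptor gene Esr1 was detected in none of the 3 and in 15 of 24 others.

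Sox10 and Sox9 were low as well. Sox10, known from neural crest and glia and also present in mammary epithelium, was at 6.12, 5.23 and 6.97 in J4, A5 and A6 against 8.47, 12.42 and 13.20, a 63.6-fold lower signal. Sox9, a factor of cartilage and of mammary progenitors, was at 7.88, 7.30 and 10.17 against 10.80, 12.15 and 13.49. Neither range met that of the others. The remaining genes with the widest gaps downward were Fermt1 (an integrin activator of epithelia), Urah, Phlda2 (an imprinted growth regulator), Chmp4c (an ESCRT component), Esyt3 and Wwc1 (a Hippo pathway regulator), with differences between -4.99 and -4.28. Among the 125 lower genes other than markers that have a promoter in the RefSeq table, 60 (48%) held CAGGTG, against 21.5% of the 8671 measured genes and 18.1% of 72 higher genes. The lower genes come from sides chosen on the same arrays, and a part of ZEB or SNAI proteins in their levels was not tested.

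**Figure D2:**
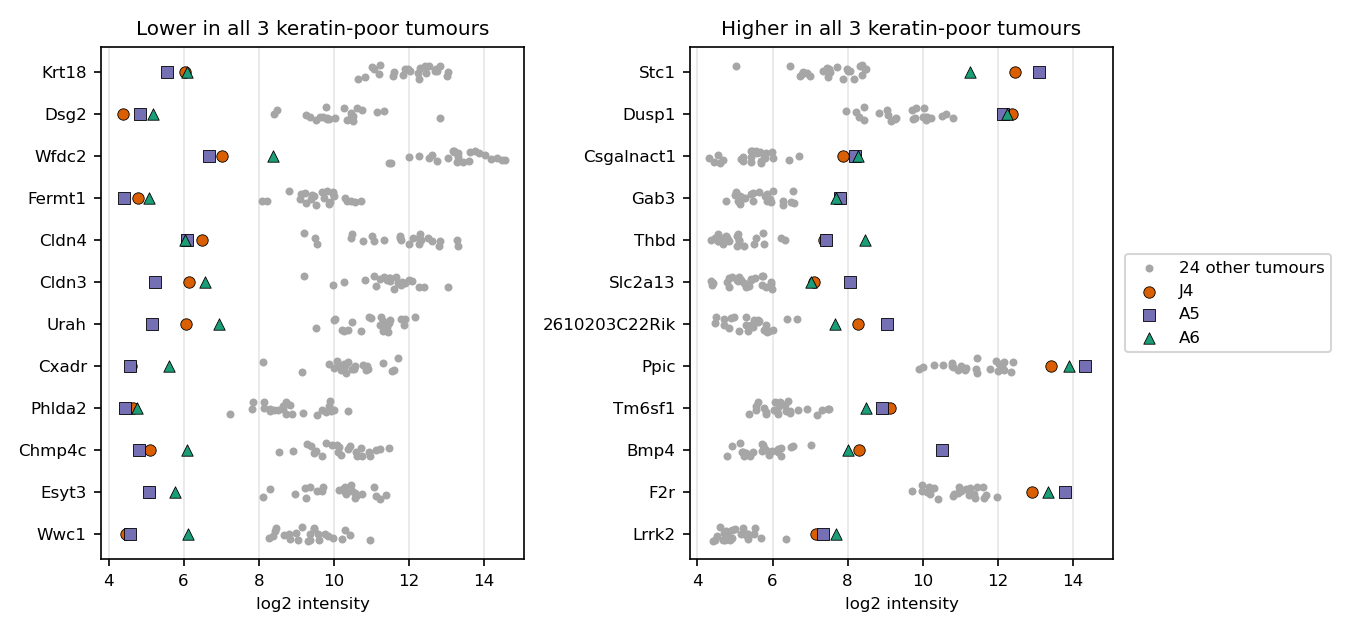
Log2 intensity of the 12 genes with the widest gap between the sides in each direction; grey points are the 24 other tumours, and the coloured symbols J4, A5 and A6. Krt18 of the 3 tumours lies at 6.10 or less and Stc1 at 11.26 or more, and in no row do the sides overlap.

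Stc1 had the widest gap on the higher side. Stc1 encodes stanniocalcin 1, a secreted glycoprotein, and was at 12.46 in J4, 13.10 in A5 and 11.26 in A6 against 5.04, 7.52 and 8.50. All 3 tumours lay at least 2 log2 units above the highest other tumour, and the means differed 27-fold. The next widest gaps were those of Dusp1, a phosphatase of MAP kinases (12.37, 12.15 and 12.24 against 7.94, 9.72 and 10.82), and of Csgalnact1, an enzyme of chondroitin sulfate synthesis (7.87, 8.20 and 8.27 against 4.32, 5.50 and 6.69). J4, A5 and A6 differed from each other by less than 0.5 for both genes.

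Several of the higher genes have known roles at vessel walls. Thbd encodes thrombomodulin, an anticoagulant receptor, and was at 7.37, 7.43 and 8.46 against 4.36, 4.95 and 6.33. F2r encodes the thrombin receptor PAR1 and was at 12.90, 13.77 and 13.33 against 9.71, 10.97 and 11.97. Bmp4, a secreted morphogen, was at 8.29, 10.50 and 8.02 against 4.78, 5.76 and 7.03, highest in A5. The remaining widest gaps upward belonged to Gab3, Slc2a13, 2610203C22Rik, Ppic, Tm6sf1 and Lrrk2, with differences between 2.11 and 2.92.

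Of 8 mesenchymal transition regulators measured, Zeb1 alone was counted as higher, where 0.892% of all genes were. Zeb1 was at 10.23 in J4, 11.34 in A5 and 10.92 in A6 against 6.12, 7.46 and 9.76, a difference of 3.25. The range of the 3 tumours lay just above that of the others, and with median scaling between arrays in place of quantile normalization the ranges overlapped. Zeb2 and Snai1 were at 7.81 to 8.60 and 7.86 to 8.45 in the 3 tumours and did not leave the range of the others (highest 8.72 and 9.33). Snai2, at 7.54, 7.43 and 9.69, also stayed inside.

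The mesenchymal genes did not have 1 order over the 3 tumours. Twist1, a mesodermal transcription factor, was at 7.30 in J4 and 7.68 in A5, close to the median of the others (7.41), but at 11.61 in A6, above their highest (10.37). A6 lay above all 24 others in 5 of the 8 regulators, A5 in 2 and J4 in 1, where the shares over all genes were 7.46%, 8.89% and 8.96%. Over the 8 regulators the mean level was 8.26 in J4, 8.50 in A5 and 10.10 in A6, against 6.62, 7.42 and 9.07 in the others. J4 and A5 lay within the range and A6 above it.

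Vim, the vimentin gene of mesenchymal and endothelial cells, was at 13.00, 13.66 and 13.86 against 8.28, 10.71 and 14.03, so 1 or more other tumours reached as high. Sparc, a matrix glycoprotein, was the single structural gene counted among 15 (13.84, 14.61 and 13.37 against a highest other value of 13.30), and its ranges overlapped with the mean of all probes or with the chip as a block. Of 17 collagen and matrix genes 0 were counted, close to the 0.892% counted as higher over all genes. Col1a1 was at 8.63, 10.96 and 11.32 against 6.95, 11.05 and 13.33, on the middle of the others for A5 and A6 and low for J4. All 13 matrix proteases and inhibitors had higher means on the keratin-poor side, as did 45.8% of all genes. Of the 13, 0 were counted, again close to the share over all genes (0.892%). Plau (urokinase) was at 11.54, 12.30 and 11.95 against 8.83, 9.91 and 12.40.

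**Figure D3:**
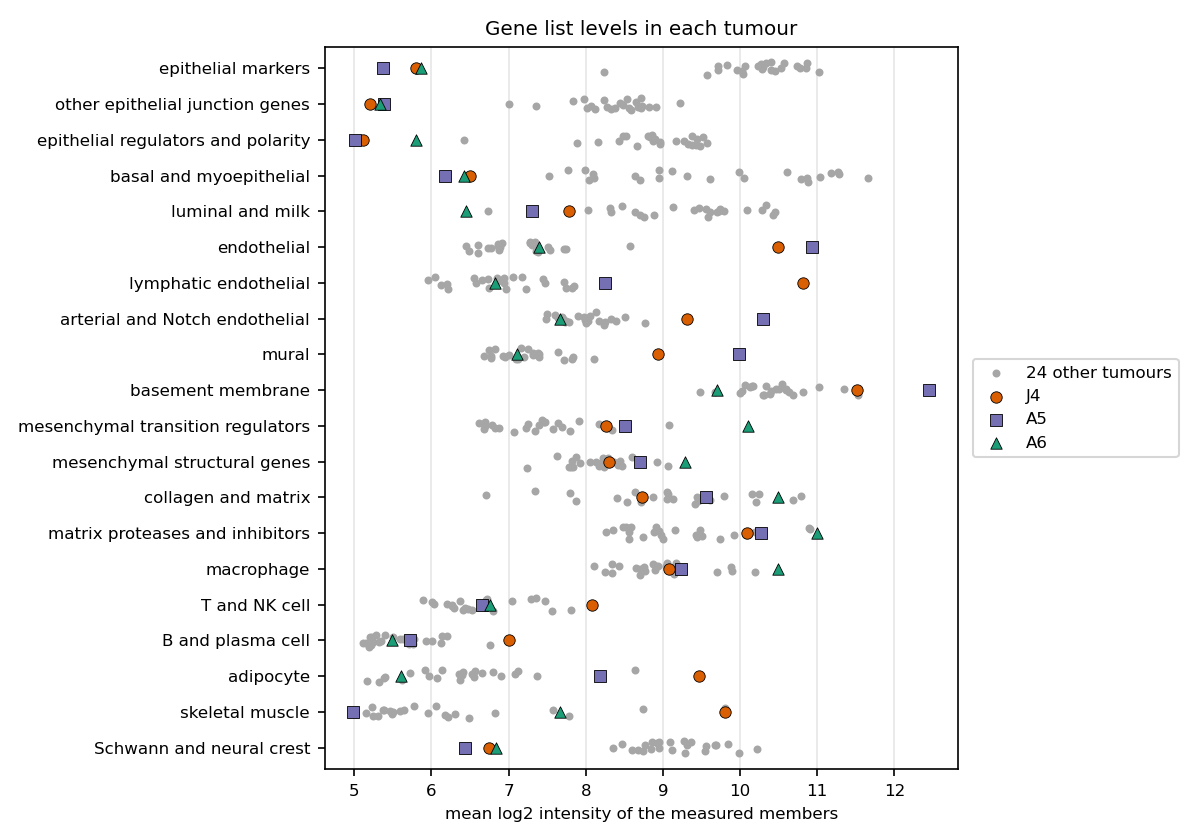
Mean log2 intensity over the measured members of 20 gene lists in each tumour; grey points are the 24 other tumours, and the coloured symbols J4, A5 and A6. Epithelial lists are low in all 3, endothelial and mural lists are high in J4 and A5 (10.50 and 10.93 for endothelial genes) with A6 (7.39) among the others, and mesenchymal regulators are highest in A6 (10.10).

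Endothelial genes separated J4 and A5 from A6. Over 26 measured of 30 endothelial genes the mean level was 10.50 in J4, 10.93 in A5 and 7.39 in A6, against 6.45, 7.28 and 8.58 in the others. J4 lay above all 24 others in 24 of 26 genes and A5 in 23, against 2 for A6 and a background of 8.96%, 8.89% and 7.46% of all genes. In bulk RNA, more cells of a type and more RNA per cell cannot be told apart. Of the 26 genes 1 was counted as higher in all 3 tumours (0.892% over all genes): Tal1, a factor of blood and endothelial cells.

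Pecam1, an adhesion protein of endothelial cells, was at 11.95 in J4, 13.50 in A5 and 8.30 in A6 against 5.34, 7.58 and 9.90. Cdh5, the cadherin of endothelial junctions, was at 11.49, 12.25 and 7.00 against 5.49, 7.62 and 9.27. J4 and A5 lay above every other tumour for both genes, and A6 lay within the range of the others. Cldn5, an endothelial claudin, was at 14.48 and 14.26 in J4 and A5 and at 7.72 in A6, against a highest other value of 12.18.

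The receptor gene Tie1 and the nitric oxide synthase gene Nos3 had the same order, with J4 at 10.21 and 10.88, A5 at 11.68 and 11.82 and A6 at 6.63 and 7.48. The 2 genes in which neither J4 nor A5 stood out were Kdr and Vwf. Kdr, a VEGF receptor gene, had a dim probe (at most 5.70 in any other tumour) that was detected in 2 of the 3. Vwf, the von Willebrand factor gene of many but not all endothelial cells, was at 7.03, 6.19 and 5.69 against 5.57, 7.75 and 10.27, below the median of the others in all 3.

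**Figure D4:**
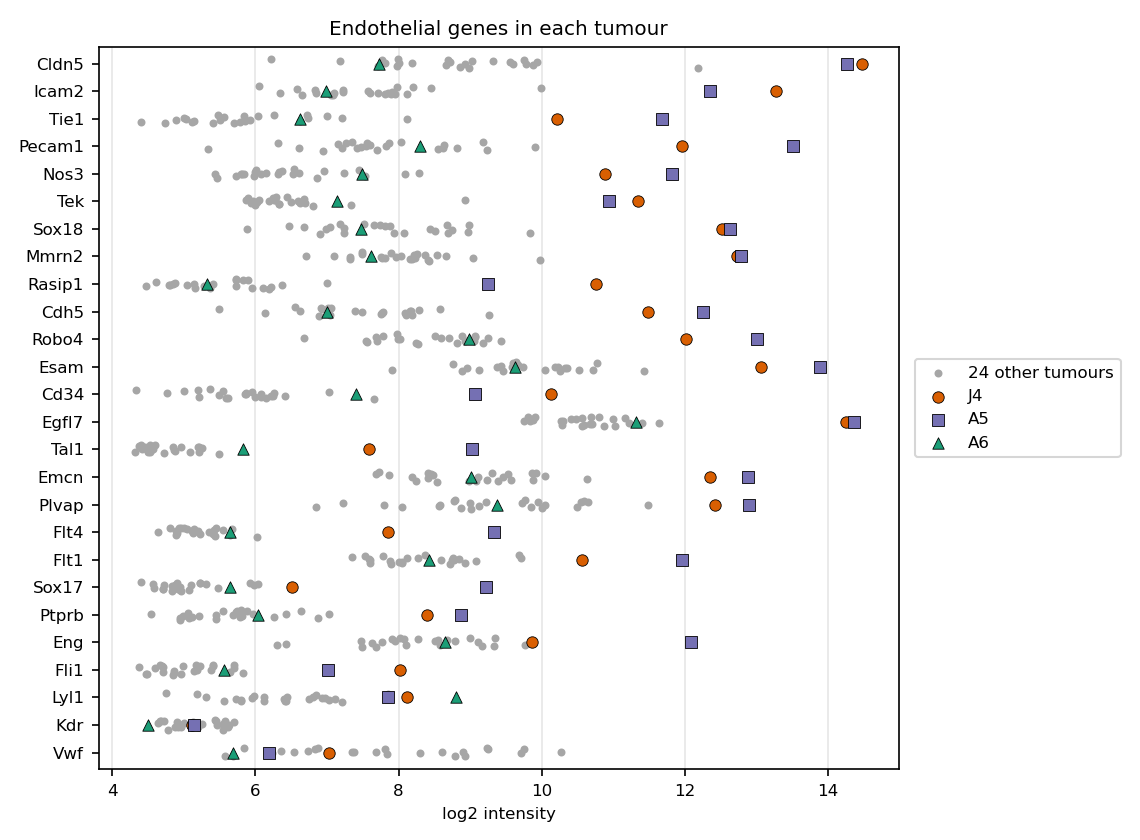
Log2 intensity of the 26 measured endothelial genes (rows), ordered by how far the mean of J4 and A5 lies above the median of the 24 other tumours (grey points). J4 and A5 lie right of the grey points in most rows, A6 lies among them except for Tal1 and Lyl1 (above) and Kdr (just below), and J4 and A5 show no separation for Kdr and Vwf at the foot.

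J4 and A5 shared many high genes beyond that list. A rule added after the values were seen counted genes that were at least 1 above the highest of the other 25 tumours in both members of a pair. It found 129 genes (1.20%) for J4 with A5, 0 for J4 with A6 and 7 (0.0651%) for A5 with A6. Of the 26 endothelial genes 19 were among the 129. The 3 widest margins were those of Bean1, of F2rl3, which encodes the thrombin receptor PAR4 (12.05 in J4 and 12.42 in A5 against at most 8.26), and of Depp1. Gpihbp1, which carries lipoprotein lipase on capillary endothelium, was at 13.40 and 12.45 against at most 9.19.

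Homeobox genes also appeared in both: Hoxb5, Hoxb7, Hoxd4, Hoxd8 and Hoxd9 were among the 129, a group picked after its values were seen. Hoxb7 was at 11.15 in J4 and 10.48 in A5, and at 6.90 in A6 against 5.39, 6.96 and 8.60 in the others. A6 had other homeobox genes high, given below with its own genes. The 7 genes of A5 with A6 were Cdh13, Mxra7, Mertk, Hsf4, Fscn1, Apcdd1 and Dpysl3. Cdh13, a cadherin without a cytoplasmic tail, was at 8.91 in J4, 11.43 in A5 and 11.22 in A6 against 6.00, 7.03 and 8.80, and the actin bundler Fscn1 was at 10.96, 13.62 and 12.39 against 7.04, 8.87 and 11.27.

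Mural and arterial genes were highest in A5 by their means, though not in every member. Over 11 mural genes the mean was 8.93 in J4, 9.98 in A5 and 7.11 in A6, against 6.68, 7.22 and 8.11. A5 lay above all 24 others in 8 of these 11 genes (8.89% over all genes) and J4 in 4 (8.96%). Des, a muscle filament gene on the mural list, was instead highest in J4 (10.97, 7.13 and 8.17 against 5.05, 6.07 and 8.68). Rgs5, a pericyte regulator of G protein signalling, was at 9.82, 11.13 and 6.26 against 4.59, 6.45 and 10.02, above all others in A5. Over 9 arterial and Notch genes J4 was at 9.31, A5 at 10.29 and A6 at 7.66, against 7.49, 7.98 and 8.77. Notch4, the Notch receptor of endothelium, was at 12.48, 13.22 and 9.30 against 7.70, 9.37 and 10.55.

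Of the 9 arterial and Notch genes 1 was counted as higher in all 3 tumours (0.892% over all genes). It was Nrp1, a coreceptor of VEGF and semaphorins (10.48, 12.45 and 10.83 against 7.23, 8.83 and 9.79). Basement membrane genes had means of 11.52, 12.45 and 9.70 against 9.48, 10.39 and 11.53, so A5 was highest, J4 lay at the top of the range and A6 near its foot. Nid2, a nidogen, was at 11.78, 12.37 and 7.51 against 5.98, 7.47 and 8.68. Angpt2, a ligand of the Tek receptor, was at 10.50, 11.99 and 8.85 against 5.71, 8.24 and 9.22, above all others in J4 and A5. Erythroid genes, hemoglobin among them, were at 10.91, 11.44 and 8.13 over 4 members against 6.97, 8.09 and 11.02, high in J4 and A5. The highest of the others for erythroid genes was J15 (11.02), whose endothelial genes were at 7.34. The part of blood in the endothelial values of J4 and A5 was not tested.

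The lymphatic list was highest in J4 by its mean, though not in every member. Over 6 measured genes J4 was at 10.81, A5 at 8.24 and A6 at 6.83, against 5.96, 6.90 and 7.85. J4 lay above all 24 others in 4 of these 6 genes (8.96% over all genes). A5 lay above them in 3 (8.89%) and below them in 1 (10.4%). Of the 6 genes, 2 had lower means on the keratin-poor side, as did 54.2% of all genes. Without Ccl21a, which is described below, J4 was at 9.97, A5 at 8.56 and A6 at 7.08 over 5 genes, against 6.11, 7.16 and 8.53. The receptor gene Flt4 was higher in A5 (9.33) than in J4 (7.85), and the transcription factor gene Sox18 was alike in both (12.63 and 12.52). Lyve1, a hyaluronan receptor of lymphatic endothelium and of some macrophages, was at 9.75, 8.05 and 4.99 against 4.30, 4.80 and 6.58. Prox1, the factor that defines lymphatic endothelium, was detected on too few arrays for the main count and was looked at after other values were seen. It was at 8.28 in J4, 4.55 in A5 and 4.40 in A6 against at most 5.15, and a second Prox1 probe was at 7.25 in J4 and at most 4.65 in the others. Mmrn1, a secreted protein of lymphatic vessels, was at 10.94 in J4 and 5.94 in A5 against at most 6.00. A second Mmrn1 probe, detected on 0 arrays, was at 4.41 in J4. The arterial Notch ligand Dll4, chosen the same way, was instead highest in A5 (9.19), with 6.54 in J4, 5.00 in A6 and at most 5.56 in the others. A second Dll4 probe, detected on 2 arrays, was at 5.48 in A5, 4.50 in J4 and 4.46 in A6 against at most 4.82. By that probe J4 lay within the range of the others.

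Genes high in a single tumour were counted when they lay at least 2 above the highest of the other 26 tumours. J4 had 13 such genes (0.121%), A5 had 20 (0.186%) and A6 had 20 (0.186%). Among the 24 others the number ran from 0 to 38 with a median of 1.5, and 2 of them, A10 with 38 and A11 with 13, had at least as many as J4. Counts of this size were therefore not found in the keratin-poor tumours alone.

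**Figure D5:**
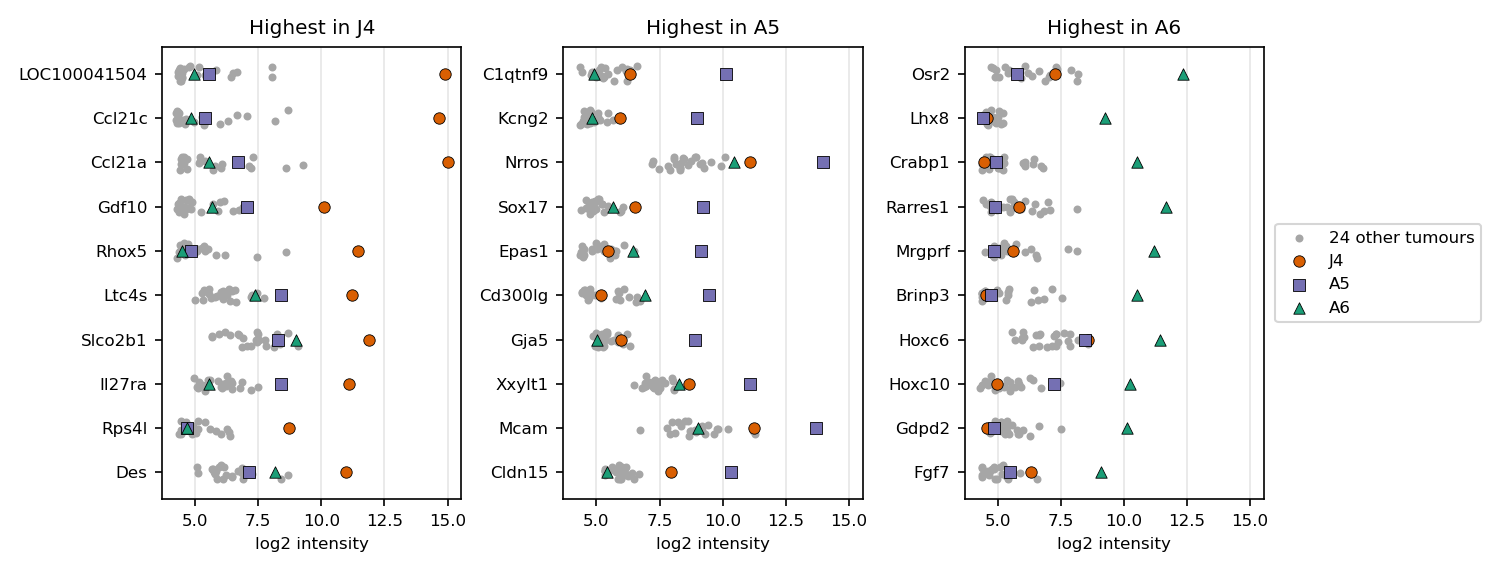
Log2 intensity of the 10 genes with the widest margin in J4, A5 and A6; grey points are the 24 other tumours, and all 3 keratin-poor tumours are drawn in every panel. The Ccl21 probes of J4 reach 14.68 to 15.01 and Osr2 of A6 reaches 12.33, each with both other keratin-poor tumours far to the left.

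In J4 the widest margins belonged to the chemokine genes Ccl21a and Ccl21c and to LOC100041504. Ccl21a was at 15.01 in J4, 6.68 in A5 and 5.55 in A6, and the next tumour, A3, was at 9.29. The value 15.01 is the top of the normalized scale, given to the brightest probe of an array, so no fold is given. These genes are near-identical copies on chromosome 4 whose probes may bind RNA of each other, so which copy was measured is uncertain. CCL21 is known to be made by lymphatic endothelium and by stroma of lymph nodes. Gdf10, a growth factor of the BMP family (10.12), the leukotriene synthase Ltc4s (11.20), the homeobox gene Rhox5 (11.44) and the muscle filament gene Des (10.97) followed, with the highest other tumour at 7.05, 8.38, 8.61 and 8.68.

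Marker lists of several host tissues had higher means in J4 than in A5 and A6, though not in every member. T and NK cell genes averaged 8.08 in J4 against 6.66 and 6.76 in A5 and A6 and 5.90, 6.60 and 7.81 in the others. J4 lay above all 24 others in 4 of these 8 genes (8.96% over all genes). The T cell receptor subunit Cd3e was at 8.73 in J4, but Cd8b1, at 8.91, lay below all 24 others (lowest 10.43). B and plasma cell genes were at 7.00 in J4 against at most 6.76 in the others, with Cd79b, a B cell receptor subunit, at 8.57. J4 lay above all 24 others in 3 of these 6 genes, while Blnk, at 5.03, lay under their median (6.56). The lymph node stroma list, which holds Ccl21a, was at 9.91 in J4 against at most 7.72, while in J4 the B cell chemokine gene Cxcl13 was at 6.14 and Glycam1, a gene of lymph node venules and of milk, at 8.38, both inside the range of the others. Adipocyte genes were at 9.47 in J4, 8.19 in A5 and 5.61 in A6 against 5.16, 6.38 and 8.63. Skeletal muscle genes were at 9.81, 4.99 and 7.66 against 5.01, 5.71 and 9.80, with the myosin light chain gene Myl1 at 12.78 in J4. The part of lymph node, fat and muscle in the values of J4 was not tested.

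In A5 the widest margins were those of C1qtnf9, an adiponectin relative (10.11 against at most 6.63), of the potassium channel subunit gene Kcng2 (9.00 against at most 5.92) and of Nrros (13.97 against 11.09 in J4, the next tumour). Sox17, an arterial endothelial transcription factor, was at 9.22 in A5, 6.51 in J4 and 5.65 in A6 against at most 6.04 in the others. Gja5, a connexin of arterial endothelium, was at 8.90, with the next tumour at 6.34, and Epas1, which encodes the hypoxia factor HIF-2 alpha, was at 9.15 against 6.48. Mcam, an adhesion molecule of endothelium and pericytes, was at 13.70 against 11.30. In 9 of the 20 A5 genes, among them Sox17, Nrros, Eng and Bmp4, the next tumour was J4.

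In A6 the widest margin was that of Osr2. Osr2, a transcription factor of palate and limb mesenchyme, was at 12.33 in A6, 7.27 in J4 and 5.78 in A5, with the highest other tumour at 8.16. Lhx8, a LIM homeobox gene, was at 9.26 against at most 5.20, and Crabp1, which binds retinoic acid, at 10.52 against 6.79. Hoxc6, Hoxc9 and Hoxc10, neighbours of the Hoxc cluster on chromosome 15, were at 11.43, 10.21 and 10.26 against at most 8.58, 8.15 and 7.45. Fgf7, a fibroblast growth factor that acts on epithelia, was at 9.09 against 6.56.

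Further A6 genes were Twist2, a relative of Twist1 (11.34 against 8.95), the lymphangiogenic growth factor gene Vegfd (10.66 against 8.20) and the gelatinase gene Mmp2 (14.23 against 12.21). The next tumour was A10 for 6 of the 20 A6 genes and A1, the tumour nearest to the threshold, for 4 of them (Twist2, Mrgprf, Gdpd2 and Rbpms2). Fgf10 and Wnt2, secreted signals of mesenchyme, were detected on 8 and 11 arrays and were picked after their values were seen: they were at 9.15 and 8.46 in A6 against at most 6.13 and 5.39 in the others. Genes known from neurons, picked in the same way, stood out more, each by a single probe. The tachykinin gene Tac1 (detected on 2 arrays) was at 9.92 in A6 against at most 5.03. Stmn2, a tubulin regulator (detected on 9), was at 10.15 against at most 5.59. The other Tac1 probe (detected on 1 array) was at 4.55 in A6, and the other Stmn2 probe (detected on 0) at 4.33. Pdgfra, a receptor of fibroblasts, was at 11.60 in A6, 7.21 in J4 and 7.24 in A5, against 5.73, 7.95 and 10.12. Macrophage genes were at 10.49 in A6, 9.08 in J4 and 9.23 in A5, against 8.11, 8.90 and 10.19, and A6 lay above all 24 others in 7 of 12 of them (7.46% over all genes), including Mrc1 (12.00 against 11.28) and Csf1r (10.49 against 9.25).

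Cycling genes lay within the range of the others, apart from S phase genes in A5. Over 15 S phase genes the 3 tumours were at 8.56, 7.915 and 8.68 against 7.925, 8.58 and 9.23, A5 being just below every other tumour. A5 lay below all 24 others in 4 of the 15 genes (10.4% over all genes). Over 11 mitotic genes the 3 tumours were at 8.50, 8.31 and 9.25 against 8.08, 9.31 and 10.19. All 11 mitotic genes had lower means on the keratin-poor side, as did 54.2% of all genes. Of the 11, 0 were counted, close to the 1.61% counted as lower over all genes. Over 11 p53 target genes the 3 tumours were at 8.12, 8.38 and 8.64 against 7.67, 8.27 and 9.06, with the cell cycle inhibitor gene Cdkn1a at 10.11, 10.24 and 9.65 against 7.83, 8.78 and 10.66. Hypoxia genes, at 9.67, 9.85 and 8.34 against 8.09, 9.24 and 10.10, and interferon genes, at 7.50, 9.00 and 9.11 against 7.07, 8.81 and 10.21, stayed within the range of the others.

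Taken over all genes outside the epithelial lists, the 3 tumours were not uniformly close to each other. Across 10685 genes the Pearson correlation was 0.908 between J4 and A5, 0.880 between A5 and A6 and 0.831 between J4 and A6. The median was 0.812 between keratin-poor and other tumours and 0.881 among the others. J4 and A5 were each other's best match, whereas A6 correlated best with A1 (0.916). Genes are not independent replicates and share probe brightness, so these values are a description.

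Keratin-poor tumours were found at both host ages, which is the comparison that the rule did not use. They made up 1 of 15 tumours of juvenile hosts (6.67%) and 2 of 12 of adult hosts (16.7%), a difference that did not pass Fisher's exact test (two-sided p = 0.569). With 3 such tumours the smallest p that this test could give is 0.0752, so the design could not have passed a threshold of 0.05.

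Arrays were run on 5 chips, and chip and side overlapped in part. J4 was on chip 2 with 5 other tumours and A5 and A6 were on chip 3 with 3, all from juvenile hosts. Against these, the epithelial markers of J4 (5.80) lay below 10.03 to 10.87, and those of A5 and A6 (5.37 and 5.86) below 9.96 to 10.77. Endothelial genes of J4 (10.50) lay above the range of chip 2 (6.73 to 7.33) and those of A5 (10.93) above that of chip 3 (6.77 to 7.71), inside which A6 (7.39) fell. Mesenchymal regulators lay above those of the other tumours of the same chip in all 3: J4 (8.26) against 6.83 to 7.69, and A5 (8.50) and A6 (10.10) against 6.70 to 8.29. Each array detected 17867 to 21050 of 45281 probes, with 18530 in J4, 20359 in A5 and 20264 in A6. In 4 other libraries, J1, J2, J3 and J10, the translation factor gene Eef2, used by all cells, was at 5.17 to 5.69 against 11.43 to 13.28 elsewhere. Without them 112 genes were higher and 177 lower in the keratin-poor tumours.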

How the data were processed

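The 27 tumours were measured on Illumina BeadChips with 45281 probes. The deposited intensity of each probe is an average signal without normalization and comes with a detection p-value, per the file headers. Processed log2 values that the authors also deposited served as an alternative. Software in the submitters' processing notes is lumi and limma, with no version.

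Background correction and quantile normalization used limma 3.58.1 (neqc, offset 16, R 4.3.3) and gave log2 values. A probe was kept if its detection p was below 0.05 on 12 or more arrays (19344 probes), and the brightest one stood for its gene (10758 genes). By the platform annotation, 34885 probes have a single symbol, 18 have more and 10378 have none. Trp53 was not analysed here, since no probe carries that name. Levels of different probes cannot be compared.

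The members, the 34 lists (478 genes) and the rules were chosen with earlier results of these data known. Named genes were the 16 markers, the 12 widest gaps in each direction, the 10 widest margins of J4, A5 and A6, up to 4 members of each list with the largest difference, and 25 preset genes. Every other gene named, among them those of the J4 with A5 rule, the Hox genes, Csn2, Wap, Twist2, Pdgfra, Mmp2 and those under the filter, was chosen after its values were seen. Figures were drawn with matplotlib 3.10.9.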

Additional observations from a re-analysis of the deposited data

How the results depend on the processing

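The same 3 tumours were lowest for the epithelial markers under every normalization tried and were the only ones under thresholds of 6, 7 and 8. With quantile normalization alone or the authors' values their highest marker mean was 7.35 against 8.94 in A1, so there the threshold of 7 itself would not hold all 3. Both settings gave these same values and the same gene counts below, so they are not separate checks. Counts of genes high and low in all 3 (96 and 173) were 73 and 141 with quantile normalization alone or the authors' values, all of them shared, and 87 and 155 with median scaling, of which 58 and 133 were shared. They were 134 and 241 with the chip as a block, of which 73 and 139 were shared. With detection on 3 or more arrays they were 104 and 173 of 13066 genes. With detection at p under 0.01 on every array they were 52 and 72 of 6652 genes, and with a difference of at least 2 the higher count was 54. Within chip 2 they were 1240 and 1358 and within chip 3 472 and 683, where fewer tumours form the range. Leaving out 1 tumour gave 96 to 412 higher and 170 to 394 lower genes. The counts were 412 and 394 without A6, 196 and 298 without J4 and 122 and 202 without A5, since 2 tumours meet the rule more easily than 3. Without A1 they were 114 and 245. Calls were followed for 21 higher and 43 lower genes, which are the rule-named ones, list members and genes of A5 with A6. With detection at p under 0.01 on every array, 11 of the 21 and 30 of the 43 were not tested. The remaining 10 and 13 kept their call. Median scaling ended the call of Zeb1, Xxylt1, Cdh13, Mertk, Mxra7, Spint2, Bspry and St14, the chip block that of Nrros, Sparc, Xxylt1, Krt15 and Trp63, and the mean of all probes that of Sparc.

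Genes high in 1 tumour numbered 11 in A5 with quantile normalization alone or the authors' values, 8 in J4 with median scaling, 27 in J4 and 33 in A6 with detection on 3 or more arrays, and 3, 9 and 3 in J4, A5 and A6 with the strict detection filter. With a margin of 1 they were 89, 144 and 88. The count for J4 with A5 was 56 under the strict filter and 97 to 148 under the other settings. No paired analysis was possible because the sides come from no label and their differences from no test. Dim probes are compressed toward the background, so differences of genes near detection are understated.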

Other observations

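Receptor tyrosine kinase genes were unlike among the 3 keratin-poor tumours. Over 10 measured receptors J4 was at 7.19, A5 at 7.77 and A6 at 8.19 (mean log2 intensity) against 7.62, 8.50 and 9.11 (lowest, median and highest) in the 24 others. Met, the receptor of hepatocyte growth factor, was at 10.54 in A6 and at 4.37 and 4.39 in J4 and A5, against 4.23, 5.59 and 11.16. Kit, the stem cell factor receptor of luminal progenitors and mast cells, was at 10.29 and 11.89 in J4 and A5 and at 7.33 in A6, below every other tumour (lowest 7.63). Fgfr2, a receptor for FGF7 and FGF10 on epithelia, was at 7.67, 6.02 and 4.28 against 4.46, 10.92 and 14.45. Met and Kit were picked after their values were seen.

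Some further lists stayed inside the range of the others in all 3 tumours. MHC class II genes were at 9.83, 10.81 and 9.85 in J4, A5 and A6 against 8.47, 9.95 and 11.25. TGF-beta pathway genes were at 9.23, 9.34 and 10.14 against 9.12, 9.66 and 10.18, although Tgfb1 was at 11.55, 12.58 and 10.70 against a highest other value of 11.39. Neutrophil and mast cell genes were at 6.63, 7.27 and 7.35 against 5.24, 6.37 and 10.42, with the mast cell protease gene Mcpt4 at 8.24 in A6 against at most 7.69. Collagen and matrix genes were at 8.73, 9.57 and 10.50 against 6.71, 9.10 and 10.79, and genes expressed in all cells at 13.02, 13.17 and 13.29 against 12.06, 13.04 and 13.31. Other lists did not. Vascular growth factors and angiopoietins, at 8.46, 9.59 and 8.37 against 6.77, 7.61 and 8.40, were above the others in A5 and, by a narrow margin, in J4. Of these 10 genes, A5 lay above all 24 others in 6 (8.89% over all genes) and J4 in 2 (8.96%). Mesenchymal structural genes, at 8.30, 8.70 and 9.29 against 7.23, 8.22 and 9.07, were above the others in A6. Matrix proteases and inhibitors, at 10.09, 10.27 and 11.00 against 8.26, 8.98 and 10.91, were above them in A6 by a narrow margin. Cartilage and bone genes (5.65, 5.68 and 6.19 against 6.71, 8.01 and 9.87) and Schwann and neural crest genes (6.74, 6.43 and 6.84 against 8.35, 9.10 and 10.22) were below all others. These means rest on 4 of 14 and 5 of 11 genes. Among them Sox9 and Sox10 were the single members of their lists counted as lower in all 3 (1.61% over all genes). In the Schwann list Sox10 and Mia had the largest differences (-5.99 and -5.67). Pmp22 went the other way, with a difference of 1.66.

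Second probes mostly had the same sign but often did not meet the counting rule. Of the 96 higher genes 37 had other detected probes, all of the same sign for 33 and all within the counting rule for 14, and of the 173 lower genes 69 had them, all of the same sign for 67 and all within the rule for 18. The exceptions were Dock4, Mtmr11, Pip4p1 and Rgs3 among the higher and Cacna1d and Pla2g4b among the lower genes.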
